A study of Mus musculus with 12 samples.

Results

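The change described here is the one that HMGN1-OE myeloid progenitors went through from 36 to 96 h without E2, the interval in which the cultures took on the gene expression of maturing neutrophils. It rests on 4 of the 12 RNA-seq libraries of the study, 2 at each time, and on every gene that reached at least 1 FPKM (a level that is scaled for transcript length and library size) in at least 2 of the 12 libraries. That rule, which does not look at the change itself, kept 11516 of the 23309 genes listed. HMGN1-OE cells came from mice on a C57BL/6 background that carry the human HMGN1 gene as a transgene, and the wild-type (WT) cells that serve as a comparison came from littermates. In both genotypes CD117+ bone marrow cells had been transduced with a retrovirus for ER-HoxB8, a fusion of HoxB8 with the estrogen receptor, and were grown in IL-3 together with the estrogen E2. ER-HoxB8 holds the cells at a progenitor stage while E2 is present, and its removal starts differentiation, so that every library, control or not, is of cells that had carried this oncoprotein and received this cytokine. RNA was extracted from a fixed number of cells, and synthetic ERCC RNAs were added in a fixed amount to the RNA of each sample, so that losses before this step, during extraction, are not covered by them.

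Neutrophils are made in stages that can be read from their granules. Promyelocytes first transcribe the genes of the primary (azurophil) granules, such as myeloperoxidase and the serine proteases, and then switch these off when the genes of the secondary (specific) and tertiary (gelatinase) granules come on at the myelocyte and metamyelocyte stages. Division ceases, nucleolar ribosome synthesis is shut down, and the cell that results has little cytoplasmic RNA, a store of antimicrobial proteins and the receptors, adhesion molecules and oxidase with which it finds and kills microbes.

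Values are given on 2 scales. The spike-in scale is that of the deposited values, which the authors had normalized to the ERCC RNAs, and a difference on it is one in the RNA obtained from equal numbers of cells. The median-scaled values were multiplied per library so that the median of the tested genes became equal, and a difference on that scale is relative to the typical gene of the same library. Differences are in log2(FPKM + 1), 96 h minus 36 h, with the standard error (SE) of limma, and a gene is said to have risen or fallen where limma's two-sided test gave a Benjamini-Hochberg adjusted p under 0.05 over the 11516 genes. The pseudocount of 1 understates the change of genes that lie near or under 1 FPKM at one of the times. The 2 libraries of a group are called a and b in the order of the table. The study calls its samples biological duplicates, and whether they came from separate mice or transductions is not given in the sources used here, so the p-values cover only the spread between these libraries. An exact permutation test of 2 libraries against 2 cannot go below p = 0.333, and each call therefore rests on limma's sharing of variance among genes. On the spike-in scale limma set the variance from the trend over expression alone (prior degrees of freedom infinite), and a gene's own spread did not enter its p-value, whereas on the median-scaled values the prior had 2.37 degrees of freedom beside 6 residual ones.

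Both libraries at 96 h held less RNA relative to the ERCC RNAs than those at 36 h. The FPKM of all genes summed to 909475 and 898852 in the 2 libraries at 36 h and to 405490 and 559135 at 96 h, and the number of genes at 100 FPKM or more went from 1473 and 1416 to 394 and 538. The median FPKM of the tested genes was 18.7 and 17.3 at 36 h and 5.74 and 7.32 at 96 h. The groups did not overlap in any of these measures, and library b at 96 h lay above library a, by a median over the tested genes of 0.28 in log2(FPKM + 1). In bulk RNA a lower share of cells that express a gene and less of its RNA in each cell cannot be told apart. The difference was uneven over the genes. With small RNAs left aside, the 10 genes with the highest level at 96 h were S100a8, S100a9, Ngp, BC100530, Gm5483, Chi3l3, Camp, Stfa1, Lyz2 and Tmsb4x. They made up 0.307 and 0.255% of the FPKM sum without small RNAs at 36 h and 38.9 and 38.5% at 96 h. Without these 10 genes and the small RNAs the sum was 861860 and 849043 at 36 h and 240555 and 334450 at 96 h. The sums of all genes given above include the small RNAs.

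Of the genes tested 463 rose (4.02%) and 7479 fell (64.9%) on the spike-in scale, together 69%, and the median difference over all tested genes was -1.33. The number that fell depended on single libraries, with 39.7% without library a at 36 h, 45.6% without library b at 36 h, 30.8% without library a at 96 h and 53% without library b at 96 h, and the number of falls in many of the lists below moved with it. The pairs of single libraries gave medians from -1.52 to -1.14. Both libraries at 96 h lay above both at 36 h for 843 genes (7.32%) and below them for 10093 (87.6%), so that a lower value at 96 h is the common state against which the members below have to be read. Scaling to the median took the median difference to -0.12 and called 3177 genes higher (27.6%) and 4324 lower (37.5%), together 65.1%, with 4353 (37.8%) above and 5630 (48.9%) below without overlap. A common FPKM total, another way to make the libraries relative, gave 1483 higher and 6542 lower. Of the genes called, 439 were higher and 4323 lower on both scales, and 98 were lower on the spike-in scale but higher relative to the median. None was called higher on the spike-in scale and lower on the other. The plot of the gene lists on both scales shows the spread of the members, list by list.

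**Figure D1:**
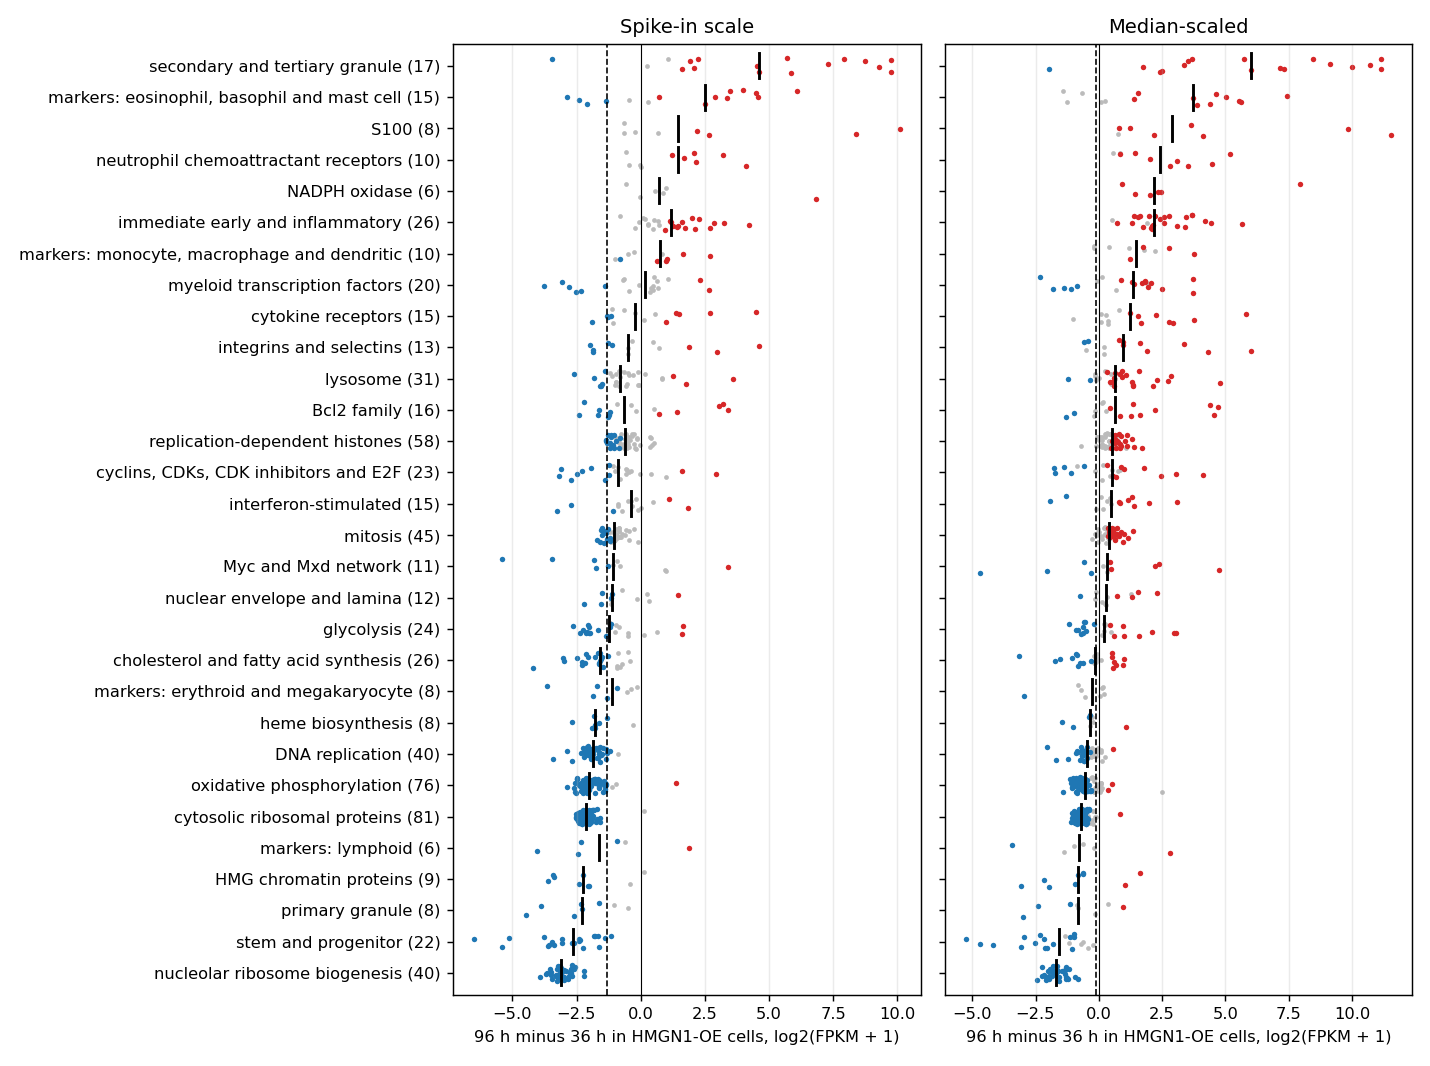
Difference between 96 and 36 h in HMGN1-OE cells for each tested member of 30 gene lists, in log2(FPKM + 1), on the spike-in scale (left) and median-scaled (right). The number of members tested is in parentheses. Red points rose, blue points fell and grey points did not pass limma's test at an adjusted p of 0.05, black bars are list medians and the dashed line is the median of all 11516 genes (-1.33 left, -0.12 right). The secondary and tertiary granule list lies highest with medians of 4.59 and 6.0, and nucleolar ribosome biogenesis lies among the lowest with -3.10 and -1.68.

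The largest products of the change were the transcripts of S100a8 and S100a9, whose proteins form calprotectin, the main cytosolic protein of neutrophils. S100a8 was at 309 and 131 FPKM at 36 h and at 54572 and 83718 FPKM at 96 h. S100a9 was at 158 and 19.4 FPKM at 36 h and at 51875 and 73461 FPKM at 96 h. Both libraries at 96 h stood far above both at 36 h, and at 36 h library a was the higher one for both genes. The difference was 8.39 ± 0.63 (SE) for S100a8 (limma, adjusted p = 2.41e-37) and 10.08 ± 0.61 for S100a9 (limma, adjusted p = 1.38e-57) on the spike-in scale. The call for S100a9 there was lost with limma's robust prior (adjusted p = 0.0800) and without a filter on low values (adjusted p = 0.0910), and it held without the trend (adjusted p = 0.000134). Median-scaled, S100a9 rose by 11.54 with an adjusted p of only 0.0381, because 1 WT library at 96 h lists S100a9 at 0.0511 FPKM beside 26546 FPKM in the other and this enters the variance of the gene. With that value set to missing the adjusted p was 7.29e-05, and with single HMGN1-OE libraries left out it ran from 0.0757 to 0.151. The pair held 0.0513 and 0.0167% of the FPKM sum at 36 h and 26.3 and 28.1% at 96 h.

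Of the 8 S100 genes on the list, 4 rose and none fell on the spike-in scale (median 1.45), where 4.02% of all genes rose. Median-scaled, 7 rose (median 2.90), with S100a10 as the exception, where 27.6% of all genes rose. S100a4 and S100a6, calcium-binding proteins linked to motility, rose by 2.21 and 2.65 on the spike-in scale. S100a1, S100a10, S100a11 and S100a13 did not pass the test there, with differences between -0.67 and 0.69. All values of S100a8 and S100a9 at 96 h lie beyond the range of the standards. The most abundant ERCC RNA was at 1055 and 1131 FPKM in the libraries at 96 h, 25 and 41 genes lay above it, and S100a8 reached 51.7 and 74.0 times its level. At 36 h 122 and 121 genes, with 36.4 and 37.6% of the FPKM sum, lay above the highest ERCC RNA (1118 and 1160 FPKM), among them Ctsg, Mpo, Npm1, Eef1a1 and many ribosomal proteins, so that the falls of these genes given below start beyond the standards too. Levels above the highest standard depend on how the authors' loess curve was carried on beyond it, and their part in the result was not tested.

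The stefin A cluster, cysteine protease inhibitors of the cystatin family that mouse neutrophils express from many near-identical copies, rose with them. Stfa1 was at 15 and 1.30 FPKM at 36 h and at 5744 and 4645 FPKM at 96 h. BC100530 was at 25.1 and 2.03 FPKM at 36 h and at 9753 and 9520 FPKM at 96 h. Gm5483, the gene with the largest rise of all, went from 17.7 and 1.81 FPKM to 7819 and 8913 FPKM. In these genes, too, library a at 36 h was about an order of magnitude above library b, and both were far under the libraries at 96 h. The spike-in differences were 9.73 ± 0.58 for Stfa1, 10.08 ± 0.60 for BC100530 and 10.17 ± 0.59 for Gm5483, with limma adjusted p-values of 5.63e-60, 7.93e-61 and 1.51e-62. BC117090, Stfa2l1, 2010005H15Rik, Stfa2, Stfa3 and Gm5416 rose as well, by 9.88, 9.83, 9.02, 8.67, 8.54 and 5.78. Reads of such copies can be shared out in many ways, so the level of a single member is uncertain, and their sum is firmer. The 9 genes together were at 75.6 and 7.60 FPKM at 36 h and at 32776 and 30563 FPKM at 96 h, or 8.08 and 5.47% of the FPKM sum at 96 h.

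**Figure D2:**
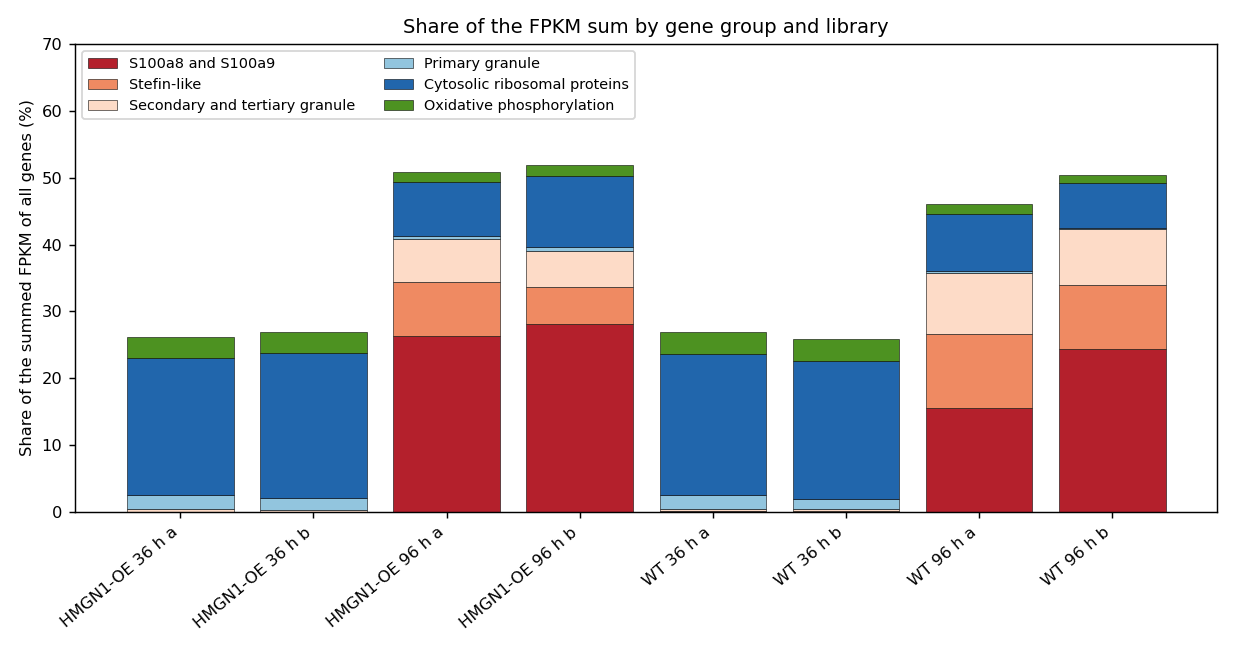
Share of the summed FPKM of all genes (%) taken by 6 gene groups in each of the 4 HMGN1-OE and 4 WT libraries at 36 and 96 h, as stacked bars that start at 0, with the rest of the genes left blank. In HMGN1-OE cells S100a8 and S100a9 grow from at most 0.0513% to 26.3 and 28.1%, and the cytosolic ribosomal proteins shrink from 20.5 and 21.7% to 8.16 and 10.5%. S100a9 is listed at 0.0511 FPKM in WT library a at 96 h, so its red bar holds S100a8 alone.

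Of the 18 listed genes of the secondary and tertiary granules and the proteins that accompany them, 17 were tested and Bpi was under the filter. As many as 14 rose and 1 fell on the spike-in scale, with a median of 4.59, against 4.02% of all genes that rose. Median-scaled, 16 rose and 1 fell (median 6.0). The number that rose on the spike-in scale was 14 with each HMGN1-OE library left out in turn. The list held 0.328 and 0.326% of the FPKM sum at 36 h and 6.55 and 5.48% at 96 h, and without Anxa1 and Slpi, which were abundant at both times, its summed FPKM went from 426 and 356 to 25292 and 29090.

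Camp, the cathelicidin antimicrobial peptide, was at 9.20 and 1.51 FPKM at 36 h and at 3818 and 5112 FPKM at 96 h. Ngp, neutrophilic granule protein, was at 26.5 and 4.62 FPKM and then at 7536 and 7906 FPKM. Ltf, lactoferrin, which binds iron in the specific granules, was at 3.13 and 0.361 FPKM and then at 1212 and 856 FPKM. The groups were separated by well over an order of magnitude for each of these genes. The differences were 9.77 ± 0.58 for Camp, 9.28 ± 0.60 for Ngp and 8.75 ± 0.54 for Ltf on the spike-in scale (limma, adjusted p = 1.76e-60, 1.25e-51 and 7.41e-57). Chi3l3, a chitinase-like protein, rose by 9.74, Olfm4 by 7.93, and Cd177, a surface protein of neutrophils, by 7.28 on the same scale.

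Some members were already well expressed at 36 h. Lcn2, lipocalin-2, which binds bacterial siderophores, was at 33.8 and 31.1 FPKM at 36 h and at 1821 and 1660 FPKM at 96 h, and Lyz2, lysozyme, was at 62.6 and 54.8 FPKM and then at 3098 and 3893 FPKM. Their libraries at 36 h lay close together, unlike those of Camp and Ltf, and their spike-in differences were 5.70 and 5.87. Pglyrp1, a peptidoglycan recognition protein, was at 179 and 188 FPKM and rose to 750 and 975 FPKM, a difference of 2.21 ± 0.59 (limma, adjusted p = 0.000667). Anxa1 was at 867 and 1269 FPKM at 36 h and at 1161 and 1347 FPKM at 96 h, with overlapping libraries and a spike-in difference of 0.25 (limma, adjusted p = 0.712). Slpi, a secreted inhibitor of neutrophil elastase, was the member that fell, from 1688 and 1308 FPKM to 105 and 175 FPKM, a difference of -3.44 ± 0.62 (limma, adjusted p = 3.52e-07). Of the collagenases and gelatinases, Mmp8 was at 7.09 and 5.34 FPKM and then at 15.3 and 12.5 FPKM (1.05, adjusted p = 0.0687), and Mmp9, the gelatinase of the tertiary granules, was near the floor of the table at 36 h (0.194 and 0.179 FPKM) and at only 3.80 and 1.75 FPKM at 96 h. Mmp9 still rose by 1.61 (limma, adjusted p = 2.31e-05).

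**Figure D3:**
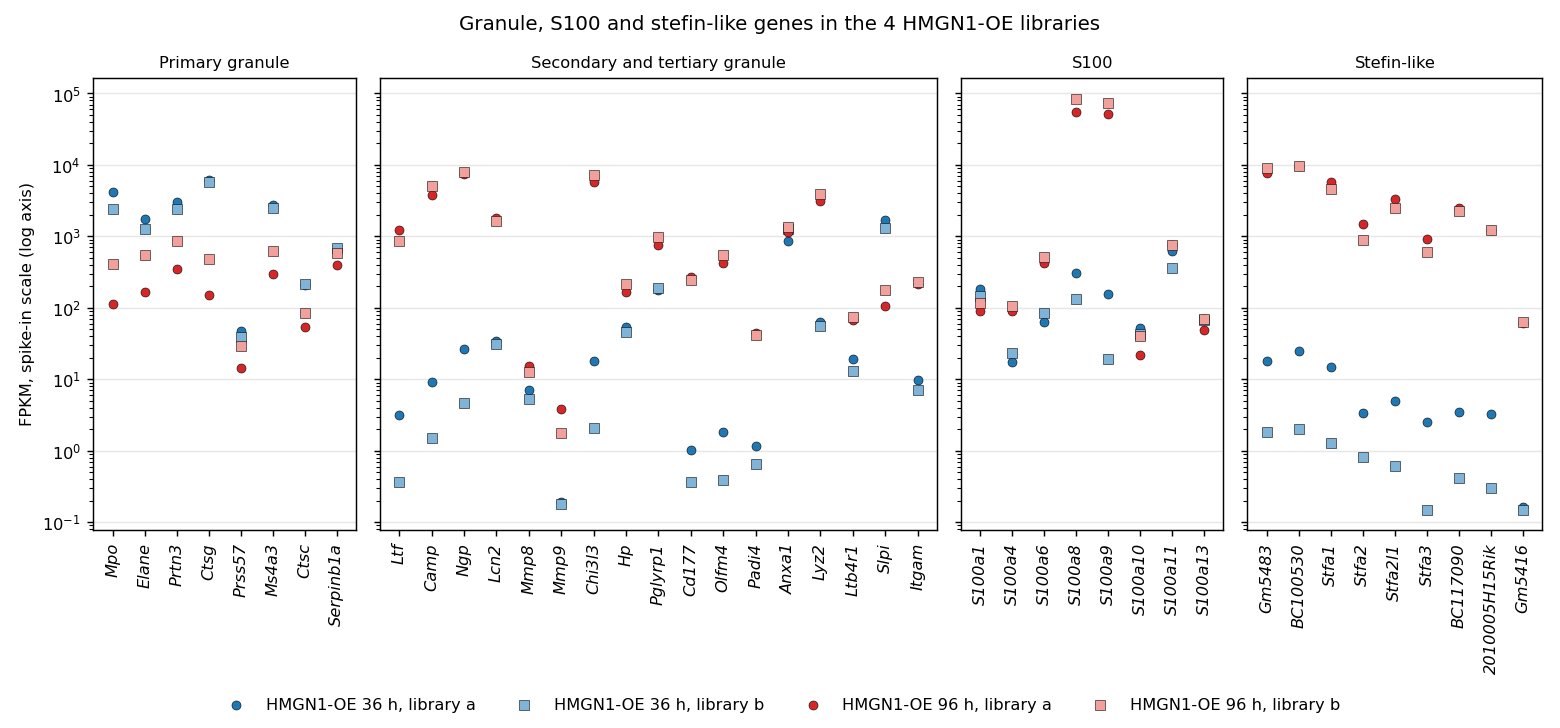
FPKM on the spike-in scale (log axis) of each tested primary granule, secondary and tertiary granule, S100 and stefin-like gene in the 4 HMGN1-OE libraries, with 36 h in blue and 96 h in red, circles for library a and squares for library b. The primary granule genes lie lower at 96 h, most of the secondary granule and all of the stefin-like genes lie higher, and at 36 h library a lies above library b for genes such as Camp (9.20 and 1.51 FPKM).

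Library a at 36 h held more of some of the later transcripts than library b. Of the 453 genes that rose on the spike-in scale and are not small RNAs, 21 were more than 1 log2 unit higher in a than in b at 36 h and 0 were more than 1 higher in b, while the median of b minus a over all tested genes was -0.09. Without library a at 36 h the difference of S100a9 was 11.56 and without library b it was 8.60, and both passed the test.

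The genes of the primary granules were lower at 96 h, as most genes were. On the spike-in scale none of the 8 rose and 6 fell (median -2.30), against 64.9% of all genes that fell, and in all 8 both libraries at 96 h lay below both at 36 h, as in 87.6% of all genes. Median-scaled, 3 fell and 1 rose (median -0.84), and 37.5% of all genes fell, so the number that fell was close to the share of all genes on both scales. With a common FPKM total 5 fell and none rose. Ctsg, cathepsin G, was at 6209 and 5770 FPKM at 36 h and at 151 and 479 FPKM at 96 h. Mpo, myeloperoxidase, was at 4147 and 2451 FPKM and then at 114 and 406 FPKM. Elane, neutrophil elastase, was at 1772 and 1260 FPKM and then at 168 and 554 FPKM. At 96 h library a was the lower one for each of the 8 genes, with the widest gaps in Ctsg, Mpo and Elane. The spike-in differences were -4.47 ± 0.63 for Ctsg, -3.88 ± 0.62 for Mpo and -2.29 ± 0.60 for Elane (limma, adjusted p = 4.87e-11, 9.67e-09 and 0.000539). Relative to the median gene, Ctsg (-3.00), Mpo (-2.41) and Ms4a3 (-1.12) still fell, while Elane (-0.82, limma adjusted p = 0.286) and Prtn3 (-0.85, adjusted p = 0.17) did not pass, and Serpinb1a, an inhibitor of these proteases, rose by 0.97. Without library a at 96 h only 3 of the 8 fell on the spike-in scale and the median was -1.55, and median-scaled 1 fell and 2 rose. Median-scaled, 1 fell without library a at 36 h too.

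The promoters of these genes are shown for the element that most of them share. The motif GAGGAAG, a form of the site bound by the myeloid factor PU.1, was searched on both strands in the 250 bases upstream of each gene's start, taken from the RefSeq table for GRCm38.p6, a later build than the mm9 of the submitters' notes. It was present in 5 of the 6 primary granule promoters in that table (83.3%), in 6 of 15 of the secondary and tertiary granule list (40%), and in 943 of the 8534 tested genes with a promoter (11.1%). Some lists of other functions held it at least as often as the later granule list, among them the Bcl2 family with 7 of 15 promoters (46.7%). Below are Elane (chr10:79886062-79886311, + strand), Prtn3, proteinase 3 (chr10:79879417-79879666, + strand), and from the later granules Pglyrp1 (chr7:18884440-18884689, + strand), 5′ to 3′, with the motif or its complement in capitals.
Elane: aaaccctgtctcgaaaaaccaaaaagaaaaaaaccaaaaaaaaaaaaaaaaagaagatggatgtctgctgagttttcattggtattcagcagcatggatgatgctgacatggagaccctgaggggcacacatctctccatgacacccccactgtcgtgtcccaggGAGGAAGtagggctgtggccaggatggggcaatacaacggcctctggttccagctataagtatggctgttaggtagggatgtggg
Prtn3: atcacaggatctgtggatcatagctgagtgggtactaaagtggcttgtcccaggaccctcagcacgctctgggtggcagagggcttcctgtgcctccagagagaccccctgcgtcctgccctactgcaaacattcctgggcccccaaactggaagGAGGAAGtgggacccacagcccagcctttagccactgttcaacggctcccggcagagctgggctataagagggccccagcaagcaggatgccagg
Pglyrp1: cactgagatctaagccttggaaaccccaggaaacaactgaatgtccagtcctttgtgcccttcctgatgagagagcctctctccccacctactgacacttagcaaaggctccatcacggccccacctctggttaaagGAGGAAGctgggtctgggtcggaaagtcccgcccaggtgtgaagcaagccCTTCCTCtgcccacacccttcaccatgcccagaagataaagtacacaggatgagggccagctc
The motif begins 85 bases before the start in Elane, 95 bases before it in Prtn3, and 113 and 63 bases before it in Pglyrp1. Elane and Prtn3 fell on the spike-in scale and Pglyrp1 rose, so genes with this motif moved in both directions. A match of letters is not a site shown to be bound.

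Cybb, which encodes the gp91 subunit of the NADPH oxidase, was near the floor at 36 h (0.761 and 0.177 FPKM) and at 167 and 155 FPKM at 96 h. It was the only one of the 6 oxidase genes to rise on the spike-in scale, by 6.81 ± 0.47 (limma, adjusted p = 7.32e-45). The other subunits were expressed at 36 h already. Cyba, the partner of Cybb in the membrane, was at 243 and 219 FPKM and then at 398 and 459 FPKM (0.89, adjusted p = 0.168), and the cytosolic Ncf1 and Ncf4 differed by 0.98 and 0.57 without passing the test. Median-scaled, all 6 rose, with a median of 2.19, where 27.6% of all genes rose. With a common FPKM total 5 of the 6 rose.

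Receptors through which neutrophils sense chemoattractants rose in part. Of the 10 tested, 6 rose and none fell on the spike-in scale (median 1.46), where 4.02% of all genes rose. Median-scaled, 8 rose (median 2.41), where 27.6% of all genes rose. C5ar1, the receptor for the complement fragment C5a, was at 0.490 and 0.274 FPKM at 36 h and at 26.4 and 19.3 FPKM at 96 h, a difference of 4.10 ± 0.40 (limma, adjusted p = 9.99e-23). Ccr1 and Ltb4r1, receptors for CC chemokines and for leukotriene B4, rose by 3.19 and 2.09, and Fpr1 and Fpr2, which recognize formylated peptides, rose by 1.24 and 2.17 to at most 7.30 FPKM. Cxcr2, which draws mature neutrophils from the marrow, was at 1.21 and 1.02 FPKM and then at 5.96 and 5.68 FPKM (1.69, limma adjusted p = 7.64e-05). Cxcr4, which retains cells in the marrow, was at 59.2 and 48.4 FPKM at 36 h and at 49.4 and 57.5 FPKM at 96 h, and its libraries overlapped (-0.01, adjusted p = 0.991). Cxcr4 was thus at a higher level than Cxcr2 in all 4 libraries. Cxcr1 was under the filter.

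The adhesion molecules moved in both directions. Itgam and Itgb2, the 2 chains of Mac-1 (CD11b/CD18), rose: Itgam was at 9.77 and 7.18 FPKM at 36 h and at 218 and 233 FPKM at 96 h (4.59 ± 0.52, limma adjusted p = 1.61e-16), and Itgb2 was at 57.3 and 53.3 FPKM and then at 198 and 218 FPKM (1.89). The integrin chains Itga4, Itga6, Itgb1 and Itga5 fell by 1.99, 1.87, 1.85 and 1.11 on the spike-in scale, as did Cd44 by 1.26. In all, 3 of 13 rose and 5 fell on the spike-in scale (median -0.49), where 4.02% of all genes rose and 64.9% fell. Median-scaled, 8 rose and 2 fell (median 0.95), or 5 and 3 with a common FPKM total. The number that fell on the spike-in scale was 2 without library a at 96 h and 3 without each of the others, and the number that rose median-scaled was 4 without library a at 36 h and 5 without library a at 96 h.

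Among 15 cytokine receptors 5 rose and 4 fell on the spike-in scale, where 4.02% of all genes rose and 64.9% fell. Relative to the median gene 8 rose and none fell, where 27.6% of all genes rose and 37.5% fell. The spike-in counts were not stable: 4 rose and none fell without library a at 36 h, 2 rose and 1 fell without library b at 36 h or library a at 96 h, and 3 rose and 1 fell without library b at 96 h. Median-scaled, 7 or 8 rose in each of these fits. Il1r2, the decoy receptor for interleukin-1, rose most, from 3.27 and 2.18 FPKM to 79.0 and 85.4 FPKM (4.50, limma adjusted p = 2.69e-18). Csf3r, the receptor for the granulocyte colony-stimulating factor, was at 13.6 and 9.19 FPKM and then at 28.9 and 32.4 FPKM (1.37, adjusted p = 0.0116), and Csf2ra rose by 1.5. Il3ra, a chain of the receptor for the IL-3 in the medium, was at 26.2 and 23.0 FPKM and fell to 8.35 and 10.7 FPKM (-1.29, adjusted p = 0.0200). The shared chain Csf2rb was at 157 and 171 FPKM and then at 64.1 and 91.8 FPKM, without overlap but short of the threshold (-1.08, adjusted p = 0.0832).

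The transcription factors that set the granulocyte fate did not move together. Of 20 tested, 2 rose and 6 fell on the spike-in scale (median 0.16), where 4.02% of all genes rose and 64.9% fell. Median-scaled, 11 rose and 5 fell (median 1.34), where 27.6% of all genes rose and 37.5% fell. Gfi1, a repressor needed for early granulopoiesis, was at 156 and 112 FPKM at 36 h and at 13.3 and 24.8 FPKM at 96 h (-2.79 ± 0.55, limma adjusted p = 4.24e-06). Cebpa, which drives the granulocyte-monocyte progenitor, was at 124 and 117 FPKM and then at 17.2 and 31.8 FPKM (-2.32 ± 0.56, adjusted p = 0.000168). Cebpe, the factor of the secondary granule stage, was at 72.5 and 58.8 FPKM at 36 h and at 87.8 and 97.8 FPKM at 96 h. The libraries of Cebpe did not overlap, but its spike-in difference of 0.50 did not pass (adjusted p = 0.407), and relative to the median gene it rose by 1.96 (adjusted p = 0.000919). Sfpi1, which encodes PU.1, was at 118 and 105 FPKM and then at 133 and 155 FPKM, a difference of 0.36 (adjusted p = 0.563) and of 1.83 when median-scaled. Cebpa and Gfi1 thus fell on both scales, while the differences of Cebpe and Sfpi1 on the spike-in scale were smaller than their standard errors. The members that rose on the spike-in scale were Rara, the retinoic acid receptor alpha, from 0.388 and 0.394 FPKM to 8.67 and 7.22 FPKM (2.68), and Klf2, from 6.06 and 6.67 FPKM to 32.7 and 39.4 FPKM (2.33).

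Every one of the 22 tested stem and progenitor genes fell on the spike-in scale (median -2.63), and 15 of them fell median-scaled (median -1.57), where 37.5% of all genes fell. Cd34 was at 259 and 337 FPKM at 36 h and at 2.59 and 2.06 FPKM at 96 h (-6.48 ± 0.57, limma adjusted p = 2.26e-27). Myb, a factor of immature cells, was at 387 and 351 FPKM and then at 19.7 and 33.9 FPKM (-3.78 ± 0.58, adjusted p = 2.49e-09). Kit, the receptor for stem cell factor and the antigen (CD117) by which the starting cells were isolated, was at 42.2 and 28.3 FPKM and then at 9.58 and 8.85 FPKM (-1.80, adjusted p = 0.0014), and it did not pass median-scaled (-0.42, adjusted p = 0.121). Hoxa9 was at 6.17 and 24.6 FPKM at 36 h and at 0.588 and 4.22 FPKM at 96 h. For Hoxa5, Hoxa7, Hoxa9 and Hoxa10 library b was above library a at both times, in Hoxa10 with 0.569 and 4.50 FPKM at 36 h and 0.12 and 0.559 FPKM at 96 h. The 4 fell by 1.38, 1.79, 2.24 and 1.15 on the spike-in scale, and none passed the test median-scaled, where the spread between the libraries enters. Left-out libraries gave between 18 and 22 members that fell on the spike-in scale.

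Apart from those of small RNAs, the 12 largest falls included Cd34 above and Mycn of the Myc list below. The others were in genes outside the lists. Mmp13, a collagenase, was at 632 and 564 FPKM at 36 h and at 1.02 and 0.551 FPKM at 96 h, a difference of -8.40 ± 0.56 (limma, adjusted p = 5.83e-48). Igfbp7, which binds insulin-like growth factors, was at 310 and 276 FPKM and then at 1.98 and 4.84 FPKM (-6.14), and Igll1, a part of the surrogate light chain of early B cells, was at 261 and 190 FPKM and then at 1.96 and 4.02 FPKM (-5.86). Gbp4, an interferon-inducible GTPase, and Nrgn, neurogranin, fell by 6.38 and 6.18, and Aldh1a3, a retinaldehyde dehydrogenase, by 5.78. Serpina3g, Cnn3, Mycn, Fkbp11 and Tgm3 fell by 5.62, 5.43, 5.42, 5.36 and 5.36. For Mmp13, Cd34, Gbp4, Nrgn, Igfbp7, Aldh1a3, Mycn and Tgm3 the fall was among the 8 largest median-scaled as well when small RNAs are left aside, between -7.40 and -4.67.

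Myc, which promotes growth and ribosome synthesis, and its antagonist Mxd1 moved in opposite directions. Myc was at 183 and 171 FPKM at 36 h and at 11.6 and 19.7 FPKM at 96 h (-3.46 ± 0.56, limma adjusted p = 2e-08). Mycn, its relative, was at 55.7 and 50.9 FPKM and then near the floor at 0.211 and 0.331 FPKM (-5.42). Mxd1, which competes with Myc for their common partner Max, was at 3.88 and 3.22 FPKM and then at 51.4 and 42.9 FPKM (3.40 ± 0.48, adjusted p = 9.05e-11). At 36 h the level of Myc was far above that of Mxd1 and at 96 h it was below it, in every library. Max itself fell by 1.73, and Mxi1 and Mxd3, further Max partners, were higher by 0.99 and 0.93 without passing on the spike-in scale (adjusted p = 0.0548 and 0.0514). Median-scaled, Mxd1, Mxi1 and Mxd3 rose by 4.74, 2.36 and 2.21.

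Of 23 cyclin, CDK, CDK inhibitor and E2F genes 2 rose and 9 fell on the spike-in scale (median -0.88), where 4.02% of all genes rose and 64.9% fell. Median-scaled, 9 rose and 5 fell (median 0.50), or 5 and 7 with a common FPKM total. On the spike-in scale 5 fell without library a at 96 h and 1 rose without library b at 36 h. The genes that fell included those that carry cells through G1 in response to growth factors. Cdk4 was at 533 and 539 FPKM at 36 h and at 42.9 and 77.8 FPKM at 96 h (-3.19 ± 0.59, limma adjusted p = 1.08e-06), and Cdk6 and Ccnd2 fell by 3.12 and 2.71. Ccnd3, another D-type cyclin, was at 69.3 and 69.6 FPKM and then at 130 and 151 FPKM, without overlap (1.0, adjusted p = 0.104, and 2.46 median-scaled, adjusted p = 8.52e-06). Those that rose on the spike-in scale were E2f2, from 1.03 and 1.18 FPKM to 15.8 and 14.5 FPKM (2.94 ± 0.40, adjusted p = 9.31e-12), and the inhibitor of Cdk4 and Cdk6 Cdkn2d, from 17.0 and 16.1 FPKM to 50 and 55.5 FPKM (1.62 ± 0.52, adjusted p = 0.00439). Cdkn1b was at 11 and 11.1 FPKM and then at 14.6 and 15.6 FPKM (0.42, adjusted p = 0.443).

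DNA replication and mitosis genes were lower at 96 h on the spike-in scale, with different medians. Of the 40 replication genes 39 fell on the spike-in scale (median -1.87), where 64.9% of all genes fell. Median-scaled, 22 fell (median -0.45), where 37.5% of all genes fell. Tk1 passed as higher median-scaled, but no replication gene did with any 1 HMGN1-OE library left out or with a common FPKM total. Median-scaled, 14 fell without library a or library b at 36 h and 11 without library a at 96 h. Pold2, a subunit of DNA polymerase delta, was at 103 and 99.7 FPKM at 36 h and at 6.12 and 11.5 FPKM at 96 h (-3.43 ± 0.54, limma adjusted p = 7.39e-09). Mcm6, part of the replicative helicase, was at 311 and 295 FPKM and then at 52.8 and 80.1 FPKM (-2.20 ± 0.58, adjusted p = 0.000596). Of the 45 mitosis genes 13 fell on the spike-in scale (median -1.03), a smaller share than the 64.9% of all genes. In 44 of the 45 both libraries at 96 h lay below both at 36 h, as in 87.6% of all genes. Ccnb1, cyclin B1, fell most, from 199 and 204 FPKM to 51.7 and 71.2 FPKM (-1.71 ± 0.58, adjusted p = 0.00615). Ccnb2, cyclin B2, was at 134 and 130 FPKM and then at 61.8 and 73.7 FPKM (-0.96, adjusted p = 0.12). Mki67, the antigen Ki-67, was at 119 and 104 FPKM at 36 h and at 95.3 and 112 FPKM at 96 h, with overlapping libraries (-0.10 ± 0.57, adjusted p = 0.872).

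The direction given to the mitosis list depends on the scaling. Relative to the median gene 24 of the 45 rose and none fell (median 0.40), and Mki67 rose by 1.36, but with a common FPKM total 3 rose and 7 fell (median -0.13). Of the rises relative to the median gene 13 were left without library a at 36 h and 12 without library a at 96 h. The share of the list in the FPKM sum was 0.477 and 0.468% at 36 h and 0.450 and 0.421% at 96 h, while that of the replication list went from 0.438 and 0.426% to 0.227 and 0.232%. The spike-in calls are also sensitive to single libraries. Without library a at 36 h, library b at 36 h or library a at 96 h none of the mitosis genes fell by limma's test, and without library b at 96 h 6 did. Of the replication genes 24 fell without library a at 36 h and 17 without library a at 96 h. In every one of these fits the median of the replication list was below that of the mitosis list on both scales. The summed FPKM of the mitosis genes, 4338 and 4210 at 36 h and 1825 and 2352 at 96 h, was of the same size as that of the replication genes at 36 h (3987 and 3826) and well above it at 96 h (921 and 1298).

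Elements known from promoters of cell cycle genes are shown for 1 gene of each list. E2F sites were searched as TTGGCGC and TTCCCGC and the CCAAT box as CCAAT, on both strands of the 250 bases upstream of the start. Of the 34 replication promoters found in RefSeq, 12 held an E2F motif (35.3%) and 21 a CCAAT box (61.8%), and of the 38 mitosis promoters 4 held an E2F motif (10.5%) and 29 a CCAAT box (76.3%). Among the 8534 tested genes with a promoter the shares were 10.5% for E2F and 37.2% for CCAAT. The CHR element, searched as TTTGAA and TTCGAA, was in 14 of the mitosis promoters (36.8%), in 6 of the replication promoters (17.6%) and in 12.2% of the promoters of tested genes. Some lists of other functions had shares as high as the mitosis list. CHR was in 6 of 15 Bcl2 family promoters (40%), and a CCAAT box was in 13 of 17 of cholesterol and fatty acid synthesis (76.5%). Mcm6 (chr1:128359706-128359955, - strand) is printed with its E2F motifs in capitals and Ccnb2 (chr9:70421555-70421804, - strand) with its CCAAT boxes in capitals, both 5′ to 3′ on the strand of the gene.
Mcm6: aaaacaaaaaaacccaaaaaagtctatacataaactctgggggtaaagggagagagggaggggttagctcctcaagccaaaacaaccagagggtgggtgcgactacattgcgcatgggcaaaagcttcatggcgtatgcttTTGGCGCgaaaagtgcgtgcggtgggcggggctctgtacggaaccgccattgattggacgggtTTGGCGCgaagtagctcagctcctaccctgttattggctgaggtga
Ccnb2: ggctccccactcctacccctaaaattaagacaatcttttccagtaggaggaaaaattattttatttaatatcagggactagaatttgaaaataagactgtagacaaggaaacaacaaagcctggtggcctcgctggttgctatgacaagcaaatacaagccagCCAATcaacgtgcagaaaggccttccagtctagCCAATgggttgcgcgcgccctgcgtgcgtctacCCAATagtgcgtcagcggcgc
The E2F motifs of Mcm6 begin 109 and 46 bases before the start. The 3 CCAAT boxes of Ccnb2 begin 87, 54 and 21 bases before it. The nucleolar genes below fell further than either list, and 9 of their 33 promoters (27.3%) held a CCAAT box and 4 (12.1%) an E2F motif.

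Nucleolar genes assemble the ribosome from its rRNA and proteins. All 40 nucleolar ribosome biogenesis genes fell on both scales, by between 2.20 and 3.92 on the spike-in scale (median -3.10) and with a median of -1.68 median-scaled, and all 40 fell on the spike-in scale with each HMGN1-OE library left out in turn. Npm1, nucleophosmin, was at 2828 and 2990 FPKM at 36 h and at 126 and 288 FPKM at 96 h (-3.92 ± 0.62, limma adjusted p = 8.17e-09). Ncl, nucleolin, was at 513 and 510 FPKM and then at 36.1 and 59.4 FPKM (-3.44 ± 0.59, adjusted p = 1.17e-07). The libraries at 36 h were almost equal in both genes, and those at 96 h differed with library a lower. Together the 40 genes held 0.901 and 0.922% of the FPKM sum at 36 h and 0.137 and 0.189% at 96 h.

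The fall of the cytosolic ribosomal proteins themselves had a smaller median. Of 81 tested 80 fell on the spike-in scale (median -2.15), and 70 fell and 1 rose median-scaled (median -0.69). Rpl3 was at 2129 and 2182 FPKM at 36 h and at 284 and 486 FPKM at 96 h (-2.53 ± 0.62, limma adjusted p = 0.000215). The ones that fell lay between -2.54 and -1.57, a narrow range for so many genes, and the exception was Rpl3l, at 0.626 and 0.683 FPKM and then at 0.535 and 1.16 FPKM. Rpl26 was listed at 22.6 and 8.66 FPKM at 36 h, far under the other ribosomal proteins, and many of these genes have processed pseudogenes with which reads can be shared. Their summed FPKM went from 186773 and 194808 to 33089 and 58824. Without library a at 96 h the median of the list was -1.74 on the spike-in scale and -0.44 median-scaled. Without library b at 36 h it was -0.59 median-scaled. The number of these genes that fell by the test depended on single libraries, as it did over all genes. Eef1a1, the elongation factor whose transcript was the most abundant at 36 h when small RNAs are left aside, with 6961 and 7920 FPKM, fell to 1098 and 1836 FPKM (-2.39, adjusted p = 0.000666).

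The oxidative phosphorylation genes, which encode the respiratory chain and the ATP synthase, had a median close to that of the ribosomal proteins. In this list 73 of 76 fell and 1 rose on the spike-in scale (median -2.02), and median-scaled 54 fell and 2 rose (median -0.56). Without library a at 96 h the number that fell on the spike-in scale was 30 (30.8% of all genes fell in that fit). Atp5b, a subunit of the ATP synthase, was at 1344 and 1310 FPKM at 36 h and at 181 and 283 FPKM at 96 h (-2.55, limma adjusted p = 0.000168). The one that rose was Ndufs5, which was at 4.62 and 0.151 FPKM at 36 h and at 5.17 and 6.05 FPKM at 96 h, and library a at 36 h lay close to the libraries at 96 h. Its call was lost without library b at 36 h, library a at 96 h or library b at 96 h. The list held 3.15 and 3.25% of the FPKM sum at 36 h and 1.42 and 1.63% at 96 h.

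Mouse Hmgn1, the counterpart of the transgene, fell. It was at 134 and 188 FPKM at 36 h and at 10.1 and 20.7 FPKM at 96 h, a difference of -3.37 ± 0.55 on the spike-in scale (limma, adjusted p = 3.13e-08) and of -1.95 median-scaled. Whether reads of the human transgene were in part counted for mouse Hmgn1 was not tested, and its own transcripts are left aside. Of the 9 genes for HMG chromatin proteins 7 fell and none rose on the spike-in scale (median -2.24), where 64.9% of all genes fell. Median-scaled, 7 fell and 2 rose (median -0.82), where 37.5% of all genes fell. The exceptions were Hmgn2, at 687 and 674 FPKM and then at 660 and 860 FPKM (0.15, adjusted p = 0.833), and Hmgb2, at 434 and 429 FPKM and then at 285 and 367 FPKM (-0.42, adjusted p = 0.528), and these 2 were the ones that rose median-scaled, by 1.62 and 1.05. Hmgn1 and Hmgn2, both nucleosome-binding proteins of 1 family, were therefore at 134 and 687 FPKM in library a at 36 h and at 10.1 and 660 FPKM in library a at 96 h.

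The nucleus of a neutrophil becomes lobed and its lamina thin, for which the lamin B receptor is required. Lbr, which encodes it, was at 136 and 130 FPKM at 36 h and at 71.5 and 90.1 FPKM at 96 h (-0.72, limma adjusted p = 0.243, and 0.74 median-scaled, adjusted p = 0.001). Lmnb1, lamin B1, was at 125 and 117 FPKM and then at 45.5 and 61.9 FPKM (-1.17, adjusted p = 0.0554), and Lmna was between 1.08 and 1.98 FPKM in the 4 libraries. Of the 12 genes of the nuclear envelope 5 fell and 1, Syne1, rose on the spike-in scale, and between 1 and 3 fell with single libraries left out, with 1 without library a at 36 h or at 96 h. This is a smaller share than the 64.9% of all genes, and median-scaled 4 rose and 1 fell (median 0.30 against -1.13), or 3 and 4 with a common FPKM total. Of 58 replication-dependent histone genes 15 fell on the spike-in scale (median -0.61) and 21 rose median-scaled (median 0.51). These counts rest on single libraries and on the scaling: between 1 and 3 fell on the spike-in scale with any 1 HMGN1-OE library left out, 10 and 9 rose median-scaled without library a at 36 h and at 96 h, and with a common FPKM total 3 rose and 1 fell. Their mRNAs largely lack a poly(A) tail, and the library kit selects poly(A) RNA, so their level here is not a measure of histone mRNA.

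Of 16 Bcl2 family genes 5 rose and 7 fell on the spike-in scale, but 2 fell without library a or b at 36 h or library a at 96 h and 4 without library b at 96 h, while 4 rose in each of these fits. Over all genes 4.02% rose and 64.9% fell. Median-scaled, 9 rose and 2 fell (median 0.63 against -0.65 on the spike-in scale), or 7 and 5 with a common FPKM total. The Bcl2a1 genes, which encode the short-lived survival protein A1 of granulocytes, rose. Bcl2a1b was at 3.06 and 3.19 FPKM at 36 h and at 33.0 and 54.6 FPKM at 96 h (3.40 ± 0.46, limma adjusted p = 1.06e-11), and Bcl2a1a and Bcl2a1d rose by 3.22 and 3.06, although these copies are nearly identical and share reads. Bcl2 was at 6.41 and 8.14 FPKM and fell to 0.585 and 0.965 FPKM (-2.22, adjusted p = 3.62e-06). Mcl1, on which neutrophils depend, was at 94.7 and 89.7 FPKM and then at 77 and 83.4 FPKM (-0.20, adjusted p = 0.753), and median-scaled it rose by 1.26. Bax and Bak1, the effectors of apoptosis, fell by 1.65 and 1.61 on the spike-in scale and did not pass median-scaled.

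Immediate early and inflammatory genes, which neutrophils transcribe on activation, rose in part. Of the 26 tested 15 rose and none fell on the spike-in scale (median 1.18), against 4.02% of all genes that rose, and median-scaled 24 rose (median 2.18). Leaving out single libraries gave between 11 and 14 that rose on the spike-in scale. Ccl6, a chemokine of myeloid cells, was at 10.5 and 8.61 FPKM at 36 h and at 132 and 288 FPKM at 96 h (4.23 ± 0.53, limma adjusted p = 1.75e-13). Fos, a subunit of AP-1, was at 4.10 and 2.71 FPKM and then at 32.0 and 29.2 FPKM (2.86 ± 0.47, adjusted p = 2.82e-08). Cxcl2, a ligand of Cxcr2, was at 0.225 and 0.423 FPKM and then at 5.40 and 10.2 FPKM (2.68, adjusted p = 7.47e-12). The negative regulators Zfp36, Nfkbia, Tnfaip3 and Dusp1 rose with them, by 2.29, 2.0, 1.45 and 1.43, as did Tnf by 2.12 and Il1b by 1.62. Of 25 interferon-stimulated genes 15 were tested, of which 2 rose (Cxcl10 and Irf7) and 3 fell on the spike-in scale (1 rose without library a at 36 h or at 96 h), where 4.02% of all genes rose and 64.9% fell. Median-scaled, 7 rose and 2 fell (median 0.49 against -0.39), and Ifit1, Ifit3, Mx1, Mx2 and Rsad2 were among the 10 under the filter.

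Of all genes that passed the test on the spike-in scale 94.2% fell, and the metabolic lists lie on either side of the 64.9% of all genes tested that fell. Of 26 genes for the synthesis of cholesterol and fatty acids 19 fell on the spike-in scale (median -1.59), and median-scaled 10 fell and 7 rose (median -0.16), or 18 and none with a common FPKM total. On the spike-in scale 9 fell without library a at 36 h, 12 without library b at 36 h and 8 without library a at 96 h, and median-scaled 2 or 3 rose with any 1 left out and 5 fell without library a at 96 h. Scd1, a fatty acid desaturase, was at 32.6 and 54.5 FPKM at 36 h and at 0.692 and 2.21 FPKM at 96 h (-4.21 ± 0.50, limma adjusted p = 4.16e-15). Hmgcs1, an enzyme every growing cell needs, is listed at the floor in all 4 libraries, so a value at the floor can also be a failed estimate. Of 24 glycolysis and pentose phosphate genes 13 fell and 2 rose on the spike-in scale (median -1.23), and without library a at 96 h 6 fell and 1 rose, while 1 rose without library a at 36 h too. Median-scaled, 8 of these genes rose and 10 fell (median 0.22), or 4 and 13 with a common FPKM total. Ldha was at 952 and 1064 FPKM and fell to 125 and 207 FPKM (-2.63, adjusted p = 8.42e-05), and Gapdh was at 466 and 473 FPKM and fell to 94.4 and 127 FPKM (-2.09, adjusted p = 0.00134). The 2 that rose were Slc2a3, a glucose transporter, from 14.7 and 19.2 FPKM to 53.7 and 52.7 FPKM (1.61), and Pfkfb4, from 4.71 and 4.12 FPKM to 17.3 and 14.8 FPKM (1.65). Pygl, which breaks down the glycogen that neutrophils store, was at 166 and 160 FPKM and then at 244 and 261 FPKM (0.63, adjusted p = 0.323, and 2.10 median-scaled, adjusted p = 2.68e-05).

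Of 31 lysosome genes 3 rose and 6 fell on the spike-in scale (median -0.82), where 4.02% of all genes rose and 64.9% fell. Median-scaled, 20 rose and 2 fell (median 0.65), or 11 and 5 with a common FPKM total (median 0.11). Of the 6 spike-in falls 2 were left without library a or library b at 36 h and 1 without library a at 96 h. The ones that rose on the spike-in scale were Ctss, cathepsin S, from 1.09 and 0.827 FPKM to 19.8 and 25.3 FPKM (3.58, limma adjusted p = 1.08e-13), Ctsh (1.77) and Psap, from 180 and 172 FPKM to 358 and 500 FPKM (1.26, adjusted p = 0.0498). Of 8 heme synthesis genes, whose product myeloperoxidase and the oxidase carry, 7 fell on the spike-in scale (median -1.79), where 64.9% of all genes fell. The number that fell depended on single libraries. The median was -1.69 without library a at 36 h and -1.56 without library a at 96 h. Median-scaled, 4 fell and 1 rose, where 37.5% of all genes fell and 27.6% rose.

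Markers of other lineages were examined to see what else the cultures held. Of 20 markers of eosinophils, basophils and mast cells 15 were tested, and 9 rose and 4 fell on the spike-in scale (median 2.51), with 1 that fell without library a at 96 h, where 4.02% of all genes rose and 64.9% fell. Median-scaled, 10 rose and none fell (median 3.73), so the falls of basophil and mast cell genes named below did not pass relative to the typical gene. Prg2, eosinophil major basic protein, was at 5.30 and 1.99 FPKM at 36 h and at 186 and 472 FPKM at 96 h (6.10 ± 0.54, limma adjusted p = 3.27e-27). Epx, eosinophil peroxidase, was at 0.902 and 0.720 FPKM and then at 14.1 and 25.3 FPKM (3.46), and the eosinophil ribonuclease genes Ear1, Ear2, Ear6 and Ear10, close paralogs, rose by 3.38, 4.48, 4.56 and 3.99. Il5ra and Ccr3, receptors that mark eosinophils, were under the filter. Of the markers of basophils and mast cells, Cpa3 was at 564 and 648 FPKM and then at 39.1 and 168 FPKM (-2.88, adjusted p = 1.4e-05), and Ms4a2, Prss34 and Mcpt8 fell by 2.42, 2.10 and 1.36, while Tpsb2 and Fcer1a rose by 2.90 and 0.71. The whole list summed to 1159 and 1168 FPKM at 36 h and to 429 and 1134 FPKM at 96 h, and the groups did not overlap. At 96 h library b was above library a for Prg2, Epx, Cpa3, Ms4a2, Prss34 and Mcpt8 by more than the general difference between these libraries, and for Ear1, Ear2 and Ear10 it was below.

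Of 16 monocyte, macrophage and dendritic cell markers 10 were tested, and 5 rose and 1 fell on the spike-in scale (3 rose and none fell without library b of either time, and 4 rose and none fell without library a at 96 h) and 4 rose and none fell median-scaled, with a summed level of 62.6 and 93.4 FPKM at 36 h and 69.9 and 88.2 FPKM at 96 h. Csf1r, the receptor that defines the lineage, was at 0.536 and 0.275 FPKM at 36 h and at 7.52 and 8.64 FPKM at 96 h (2.69, limma adjusted p = 4.07e-11), while Cx3cr1, H2-Aa and Ciita were under the filter. Of 13 erythroid and megakaryocyte markers 8 were tested, none rose and 5 fell on the spike-in scale, about the 64.9% of all genes (2 without library b at 36 h, 1 without library a at 96 h and 3 without library b at 96 h), and median-scaled 1 fell. Klf1 and Hba-a2 were under the filter. Of 16 lymphoid markers 6 were tested, and 4 fell, again about the share of all genes, and 1, Cd3d, rose to 3.77 and 3.14 FPKM, while median-scaled 1 fell and 1 rose. Ms4a1, Pax5, Cd3e, Cd4 and Cd8a were at the floor. Ebf1, a factor of early B cells, was at 20.2 and 15.3 FPKM at 36 h and at 0.148 and 0.118 FPKM at 96 h (-4.04), in parallel with Igll1. The lymphoid list summed to 77 and 69.4 FPKM at 36 h and to 10.6 and 19.2 FPKM at 96 h. The part of these cells in the changes given above was not tested.

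The WT libraries, which share no sample with the HMGN1-OE ones, went through the same interval. In WT cells 363 genes rose (3.15%) and 9940 fell (86.3%) on the spike-in scale, with a median of -2.21, and median-scaled 3646 rose (31.7%) and 4422 fell (38.4%), together 70.1%. Of the 463 genes that rose in HMGN1-OE cells 333 also rose in WT cells, which is 71.9% of the first list and 91.7% of the second. Of the 7479 that fell 7413 fell in WT cells, 99.1% of the first list and 74.6% of the second. Median-scaled, the shared genes were 3010 that rose (94.7 and 82.6%) and 3956 that fell (91.5 and 89.5%). Called in the opposite direction in WT cells were 10 of the rises and 3 of the falls on the spike-in scale, and 2 and 3 median-scaled. Over the 11516 genes, which are not independent of each other, the 2 changes had a Pearson r of 0.917 on the spike-in scale and 0.925 median-scaled.

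The loss of RNA between 36 and 96 h was smaller in HMGN1-OE cells by a median of 0.92 log2 units on the spike-in scale, but few genes passed the test of the difference. The size of this median rests on the WT libraries at 96 h: it was 0.47 without WT library b and 1.36 without WT library a, and from 0.79 to 1.06 without each of the other libraries. The FPKM sum of the WT libraries went from 1229588 and 1442573 to 449750 and 228955, and their libraries at 96 h were 0.89 log2 units apart in the median, more than those of any other group at 36 or 96 h. In the test of the difference between the 2 changes (limma interaction) the HMGN1-OE change was the higher one for 45 genes (0.391%) and the lower one for 18 (0.156%). Of these, 25 of the 45 and 15 of the 18 carried symbols of small RNAs, whose short transcripts this kind of library measures poorly. These counts became 2 and 5 without a filter and 6 and 1 without limma's trend. At an unadjusted p under 0.05 there were 520 genes. Median-scaled, 1 gene was higher (0.00868%) and 2 were lower (0.0174%), together 0.0261%, the small RNAs Mir425 and Mir3074-1 and the ubiquitin ligase gene Rnf144a, with 834 genes at an unadjusted p under 0.05. For each of the 8 primary granule genes the HMGN1-OE change lay above the WT change on the spike-in scale, as it did for 95.8% of all genes, and the median of the difference was 2.28 beside 0.92 over all genes. Without WT library b at 96 h the median of the 8 was 1.13 beside 0.47. Median-scaled, the HMGN1-OE change lay above the WT change for 7 of the 8 (48.5% of all genes), with a median of 1.18, and none of the 8 passed the test. That median was 0.62 without WT library b at 96 h and 0.78 without WT library a at 36 h, each with 6 of the 8 above.

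Mpo was the one member of the granule lists with a smaller fall that passed, and Mmp9 the one with a smaller rise. Mpo was at 7066 and 5507 FPKM in WT cells at 36 h and at 116 and 13.5 FPKM at 96 h, and the WT library of 13.5 FPKM stood apart from all other libraries at 96 h, which lay between 114 and 406 FPKM. The difference of the changes was 3.36 ± 0.87 (limma, adjusted p = 0.0237), but it was 2.30 with an adjusted p of 0.661 median-scaled, and without WT library b at 96 h it was 1.85 (adjusted p = 0.808) on the spike-in scale. The call for Mpo held without library a of either genotype at 96 h and was lost without each of the other 6 libraries, with adjusted p-values from 0.0853. It was also lost with small RNAs left out (adjusted p = 0.0605), a pseudocount of 5 (0.0652), a robust prior (0.0808), no trend (0.326) and no filter (0.562). Mmp9 was at 0.179 and 0.201 FPKM in WT cells at 36 h and at 9.25 and 21.7 FPKM at 96 h, both above the 3.80 and 1.75 FPKM of HMGN1-OE cells (difference of the changes -2.07 ± 0.49, adjusted p = 0.00582, and -2.78 with an adjusted p of 0.661 median-scaled). The call for Mmp9 was lost without either HMGN1-OE library at 36 h (adjusted p = 0.0902 and 0.0929), HMGN1-OE library b at 96 h (0.594) or WT library b at 96 h (0.431), and with a pseudocount of 0.1 (0.362), no trend (0.326) or no filter (0.562). Camp (2.27, adjusted p = 0.355), S100a8 (2.65, adjusted p = 0.346), Elane (2.75, adjusted p = 0.162) and Ctsg (2.78, adjusted p = 0.212) did not pass. Hmgn1 itself did not either, with a difference of 0.92, the same as the median of all genes. The plot of the HMGN1-OE change against the WT change shows most genes above the diagonal on the spike-in scale and along it when median-scaled.

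**Figure D4:**
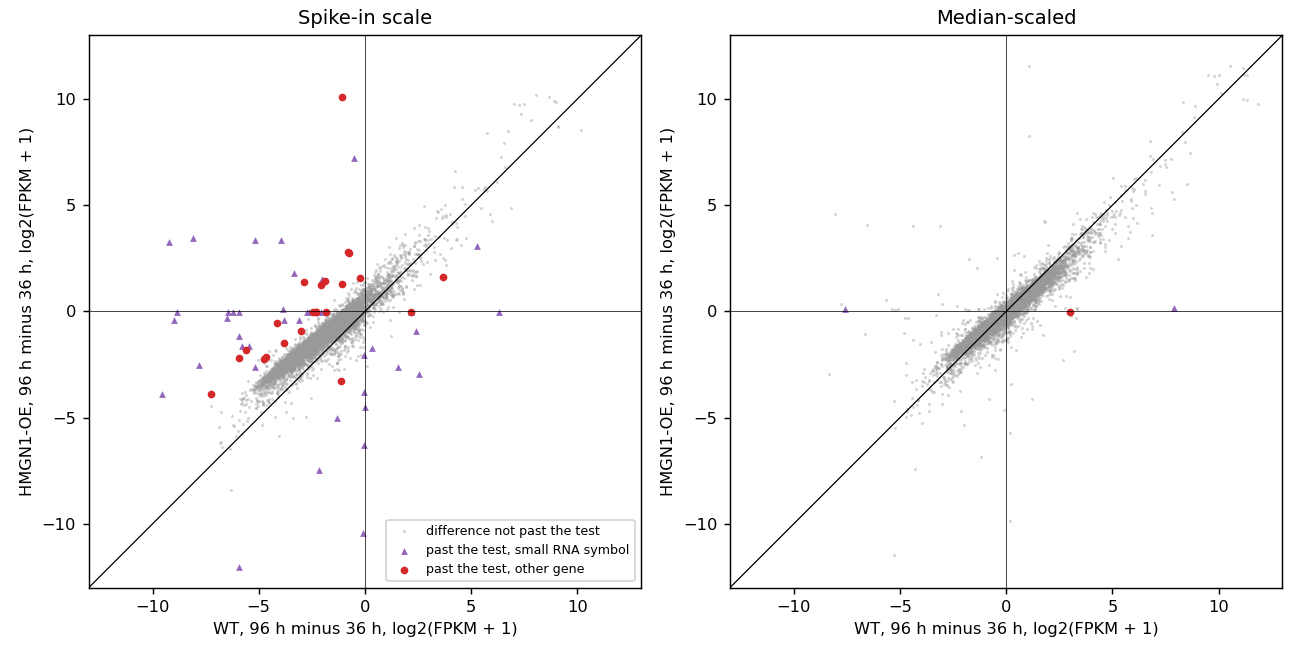
Difference between 96 and 36 h, in log2(FPKM + 1), in HMGN1-OE cells (vertical axis) against WT cells (horizontal axis) for 11516 genes on the spike-in scale (left) and median-scaled (right), with the diagonal of equal change. Red points and purple triangles (small RNA symbols) passed limma's test of the difference at an adjusted p of 0.05, 63 genes left and 3 right, and the median distance above the diagonal was 0.92 on the left and -0.01 on the right.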

How the data were processed

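RNA-seq libraries from 6 groups of 2 (HMGN1-OE and WT cells at 0, 36 and 96 h) were analysed as 1 table of FPKM values for 23309 genes and 92 ERCC RNAs. Per the labels and the study's methods, RNA was extracted from a fixed number of cells, ERCC RNAs were added to it and poly(A) libraries were made. The submitters' processing notes name HISAT, Cufflinks 2.0.0 and mm9, whereas the methods name Bowtie, and which of these made the table is not settled. The authors normalized the FPKM values with a loess fit on the ERCC RNAs and deposited the result. The deposited FPKM values keep no read counts, so the depth of each library is unknown, no counting interval could be given, and 2 libraries per group limit the precision. Genes without reads are listed near 0.1 FPKM. Among the 8 libraries at 36 or 96 h, 22 tested genes had a value under 0.15 in 1 library beside more than 100 in the other of the same group. Of these genes 20 are small RNAs. Such values occur in the libraries at 0 h too, which enter the same fit.

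From these values log2(FPKM + 1) was computed for the 11516 genes that 2 or more libraries list at 1 FPKM or higher. All 12 libraries were fitted in limma 3.58.1 (R 4.3.3) with a mean-variance trend and 1 mean per group, with contrasts for 96 h against 36 h in each genotype and for the difference between them, and p-values were adjusted by Benjamini-Hochberg. The median-scaled values were FPKM multiplied to a common median over the tested genes. Tables were made in Python 3.11.15 with pandas 2.3.3. Alternatives were other pseudocounts (0.1 and 5), no filter, a mean of at least 5 FPKM, other variance settings, other scalings and leaving out each library. The fits were also run on simulated data, and the outcome is not given here. Named genes were the 12 largest rises and falls on the spike-in scale and the 8 on the other, up to 8 of the largest differences between the genotypes each way among those that passed (8 and 3 on the spike-in scale, 0 and 1 median-scaled), and members of the lists, with small RNAs left aside. Small RNAs were recognised by the prefix of their symbols alone, so others can remain among the named genes. Members and lists were chosen with earlier results of these data known. A few list members were counted with their lists but are not reported here by name. Columns were assigned to groups by name, and their digits are not the replicate numbers of the labels.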

Additional observations from a re-analysis of the deposited data

Results flagged for a closer look

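A gene is listed here because its change from 36 to 96 h in HMGN1-OE cells differed from that in WT cells by limma's interaction test. Values are the HMGN1-OE change minus the WT change in log2(FPKM + 1), on the spike-in scale unless stated, and no explanation was tested.

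S100a9 had the largest difference, 11.15 (limma, adjusted p = 1.61e-34), with 1 WT library at 96 h at 0.0511 FPKM and the other at 26546 FPKM. With the low value set to missing the difference was 3.84 (adjusted p = 0.0173), and median-scaled it was 10.47 (adjusted p = 0.663). The spike-in call for S100a9 was lost without a filter on low values (adjusted p = 0.562), without limma's trend (0.299) and with a robust prior (0.341). The spike-in calls of the other genes listed here were lost without a filter as well, and those of all but Gpx8 without the trend. Ly6c2 and Ly6c1, near-identical surface antigens of myeloid cells that share reads, differed by 3.56 and 3.50 (adjusted p = 0.0053 and 0.00252). Ly6c2 was at 158 and 117 FPKM at 36 h and at 702 and 1257 FPKM at 96 h in HMGN1-OE cells, while in WT cells it was at 2179 and 275 FPKM and then at 662 and 307 FPKM, so that the WT libraries at 36 h lay far apart. Ly6c2 rose by 2.78 in HMGN1-OE cells, and its WT change of -0.78 did not pass (adjusted p = 0.199). Mpo differed by 3.36 (adjusted p = 0.0237).

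Ndufs5 differed by 4.24 (adjusted p = 1.51e-07), with 4.62 and 0.151 FPKM at 36 h in HMGN1-OE cells and 42.3 and 64.5 FPKM in WT cells. Rpl26 differed by 3.74 (adjusted p = 1.79e-05) and was at 0.0577 and 0.0285 FPKM, the floor, in the WT libraries at 96 h. Gpx8 differed by 3.78 (adjusted p = 2.46e-07). At 36 h Gpx8 was at 2.68 and 3.25 FPKM in HMGN1-OE cells and at 51.3 and 55.1 FPKM in WT cells, and at 96 h it was under 0.2 FPKM in all 4 libraries. BC064078 differed by 3.62 (adjusted p = 2.45e-05), with at most 1.31 FPKM in the HMGN1-OE libraries and 186 and 149 FPKM in WT cells at 36 h. For Gpx8 and BC064078 the genotypes thus stood apart at 36 h already.

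Mmp9 differed by -2.07 (adjusted p = 0.00582). 4933440M02Rik differed by -2.16 (adjusted p = 0.00821), with 13.6 and 6.95 FPKM at 36 h in HMGN1-OE cells. AF357399 differed by -2.19 (adjusted p = 0.00163) and was above the floor, among the libraries at 36 and 96 h, in 1 WT library at 96 h, at 22.0 FPKM, while 1 HMGN1-OE library at 0 h was at 118 FPKM. Without WT library b at 96 h its difference was 0.0054. The call for AF357399 was also lost with pseudocounts of 0.1 (limma, adjusted p = 0.104) and 5 (0.349), a mean of at least 5 FPKM (0.313) and a robust prior (0.579). Median-scaled, Rnf144a differed by -3.03 (adjusted p = 0.00809) and was at 5.42 and 3.19 FPKM in WT cells at 96 h beside 0.185 and 0.159 FPKM in HMGN1-OE cells.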

How the results depend on the processing

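No paired analysis was possible because the columns of the table carry no replicate numbers of the labels. With only 2 libraries a group and no read counts, depth limits the calls to an unknown extent. The median change of the tested genes in HMGN1-OE cells (-1.33) was -1.57 and -0.92 with pseudocounts of 0.1 and 5, -1.52 for genes with a mean of at least 5 FPKM, -0.059 over all genes without a filter and -0.12 median-scaled. With single libraries left out it ran from -1.46 to -1.18. On the spike-in scale left-out libraries gave 321 to 347 rises and 3551 to 6102 falls for HMGN1-OE, with 3551 without library a at 96 h and 4567 without library a at 36 h, and 275 to 387 rises and 8816 to 10217 falls for WT. Median-scaled they gave 2428 to 2903 rises and 3419 to 3945 falls for HMGN1-OE and 3156 to 3593 and 4005 to 4261 for WT. The mean of at least 5 FPKM left 234 genes higher in HMGN1-OE and 155 in WT cells, where fewer genes were tested. A common FPKM total gave 1483 rises and 6542 falls for HMGN1-OE and 2020 rises for WT. Without a filter, median-scaled, there were 2042 rises for HMGN1-OE and 11205 rises and 8005 falls for WT. The cause was not tested for any of these beyond what the setting itself changes.

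The difference between the genotypes was the least stable result. On the spike-in scale (45 higher and 18 lower) it gave 2 and 5 without a filter, 6 and 1 without limma's trend, 9 and 4 with a robust prior, 16 and 3 without small RNAs, an alternative chosen after seeing the data, and 10 lower with the mean of at least 5 FPKM. Median-scaled (1 and 2) it gave 2 and 1 with a pseudocount of 0.1, 5 lower with a pseudocount of 5, 2 and 8 without a filter, 1 lower with the mean of at least 5 FPKM, 0 and 1 without small RNAs, 9 and 5 with failed values of single libraries set to missing, also chosen after seeing the data, 3 and 4 with only the libraries compared, and 1 lower with the median subtracted after the log. Left-out libraries gave 29 to 87 and 15 to 31 on the spike-in scale and 1 to 15 and 1 to 72 median-scaled, with the 15 and 72 without WT library a at 96 h. The difference of AF357399 ran from -4.38 to 0.0054 with single libraries left out, with the change of sign without WT library b at 96 h. Of the values for single genes and lists under the alternatives, 868 kept their direction and call or their size, 85 kept their direction but lost the call and 50 moved. The median-scaled value of each list was counted as moved by rule, without a comparison. The tolerance for list medians came in part from the left-out fits themselves, so the tally is not a measure of stability.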
